A study of Mus musculus with 8 samples.

Results

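The genes described here encode 10 chaperones and ATP-dependent proteases of the mitochondrion: Hspe1, Hspd1, Hspa9, Trap1, Lonp1, Clpp, Clpx, Afg3l2, Spg7 and Yme1l1. They were taken as the probe sets annotated to 1 of these symbols alone, 24 of 45101 on the array. Each gene is given by its lead probe set, the one with the highest mean log2 intensity over the 8 arrays, so that 10 of 18193 measured genes are covered. This rule for probe sets uses no measured difference, but the members were chosen with earlier results of these data known. All 10 lead probe sets lay at or above percentile 69.3 of all genes by mean level. The cells were myotubes of C2C12, an established mouse myoblast line that fuses into multinucleated muscle cells when serum is lowered. After 3 days in 2% dialyzed serum, all cultures were infected with an adenovirus and then kept for 3 more days before total RNA was taken. The groups were a GFP-PGC-1α adenovirus with 100 µM deferoxamine (DFO), the GFP-PGC-1α adenovirus alone, a GFP adenovirus with 100 µM DFO, and the GFP adenovirus alone, with 2 arrays each, called biological duplicates by the submitters. PGC-1α is a coactivator that nuclear receptors and other factors recruit to genes of mitochondrial biogenesis, and DFO binds ferric iron. Below, the groups are called GFP-PGC-1α+DFO, GFP-PGC-1α, GFP+DFO and GFP. Every group carried an adenovirus, and uninfected cells were not analysed here. The coactivator was overexpressed from the virus, whose promoter the labels do not state.

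Most mitochondrial proteins are made in the cytosol and cross both membranes unfolded. In the matrix Hspa9 pulls them in and holds them, and the barrel formed by Hspd1 with its lid Hspe1 gives them a closed chamber to fold in. Proteins that fail to fold or are no longer needed are unfolded and cut by ring-shaped ATP-dependent proteases, Lonp1 and the Clpx-Clpp pair in the matrix and Afg3l2, Spg7 and Yme1l1 in the inner membrane. Muscle fibres are rich in mitochondria, and inherited changes in several of these genes cause disease of muscle or nerve in humans.

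Promoter windows (250 bases before to 50 after an annotated start; RefSeq, GRCm38.p6) were found for 8 of the 10 genes. The Hspe1 window is shown first because Hspe1 and Hspd1 lie head to head: it spans chr1:55087898-55088197 on the plus strand and shares 285 bases with an Hspd1 window on the minus strand, chr1:55087883-55088182. Trap1 (chr16:4077761-4078060, minus strand) and Lonp1 (chr17:56626854-56627153, minus strand) follow because DFO moved them in opposite directions. Capitals mark AAGGTCA, the core that estrogen-related receptors bind, GAANNTTC, the core of a heat shock element, and ACGTG, the core of a hypoxia response element, on either strand.
Hspe1: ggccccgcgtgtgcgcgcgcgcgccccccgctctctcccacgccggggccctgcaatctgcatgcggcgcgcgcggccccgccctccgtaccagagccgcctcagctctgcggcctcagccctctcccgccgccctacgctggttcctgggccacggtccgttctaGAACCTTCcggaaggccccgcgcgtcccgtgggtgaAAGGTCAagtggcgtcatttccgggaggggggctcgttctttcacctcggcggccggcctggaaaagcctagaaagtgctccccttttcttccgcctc
Trap1: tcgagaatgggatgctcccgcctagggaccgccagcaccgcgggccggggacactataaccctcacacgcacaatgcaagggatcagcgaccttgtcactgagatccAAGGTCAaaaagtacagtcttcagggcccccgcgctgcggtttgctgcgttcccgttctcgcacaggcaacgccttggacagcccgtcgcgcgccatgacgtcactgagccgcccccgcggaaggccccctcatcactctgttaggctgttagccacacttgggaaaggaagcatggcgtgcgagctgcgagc
Lonp1: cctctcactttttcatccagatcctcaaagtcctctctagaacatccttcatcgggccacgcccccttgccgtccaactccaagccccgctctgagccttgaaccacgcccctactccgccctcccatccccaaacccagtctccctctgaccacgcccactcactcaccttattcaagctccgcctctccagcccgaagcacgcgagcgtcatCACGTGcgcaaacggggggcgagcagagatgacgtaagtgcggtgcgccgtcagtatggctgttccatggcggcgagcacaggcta
In the Hspe1 window AAGGTCA starts at position 203 and GAANNTTC at position 167, counted from 1 at the 5′ end as printed. The only match in the Trap1 window is AAGGTCA at position 108. In the Lonp1 window the palindrome CACGTG holds ACGTG on both strands, at positions 215 and 216, which overlap. Of 6 motifs searched, AAGGTCA was found in 3 of the 8 genes (Hspd1 and Hspe1, the same bases read from each side, and Trap1) and in 4.72% of all 32851 windows of the table. GAANNTTC was found in 2 of the 8 (Hspd1 and Hspe1, again the same bases) and in 7.86% of all windows. ACGTG occurred in 4 of the 8 (Clpx, Hspd1, Lonp1 and Spg7) and in 19.6% of all windows. CCAAT, the NF-Y box, was in 3 of the 8 and 37.4% of windows, GCATGCGC, the NRF-1 core, in Clpx alone and 2.71%, and TGATGCAA, a composite site for ATF4 and CHOP, in none of the 8 and 0.895%. A match is a run of letters, and binding was not measured.

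Array medians lay between 59.25 and 62.62 intensity units, and 968 to 1082 values per array were exactly 1. The lead probe set of Ppargc1a, the gene of PGC-1α, read 7930.33 and 7710.45 in GFP-PGC-1α+DFO, 7211 and 7036 in GFP-PGC-1α, 26.6 and 88.1 in GFP+DFO and 28.6 and 37.3 in GFP. Both groups given the construct lay above both others, by 7.34 ± 0.55 with DFO and 7.77 ± 0.55 without it (log2 ± SE; limma adjusted p = 0.00174 and 0.00315). DFO came with lower myotube markers: summed intensity of 8 was 13520 to 14551 in GFP-PGC-1α+DFO, 39602 to 39885 in GFP-PGC-1α, 19221 to 19696 in GFP+DFO and 45954 to 49056 in GFP, and 6 of 8 fell with DFO in GFP cells and 7 of 8 in GFP-PGC-1α cells. Their part in the DFO results below was not tested, and in these bulk samples fewer myotubes and less RNA of a gene per cell cannot be told apart. Summed intensities of markers of other cells were 212 to 857 for 4 of myoblasts and reserve cells, 10.6 to 66.1 for 2 of adipocytes, 153 to 253 for 3 of endothelium and 452 to 622 for 3 of macrophages, of which Cd34 and Cd68 rose and Myf5 fell with DFO in both pairs of groups. The sum for myoblasts and reserve cells was lower with DFO. It was 212 to 326 in GFP-PGC-1α+DFO, 824 to 857 in GFP-PGC-1α, 441 to 451.5 in GFP+DFO and 764 to 787 in GFP. For Actb, 5′ over 3′ probe set intensity, a sign of RNA quality, was 0.753 and 0.811 in GFP-PGC-1α+DFO, 0.919 and 0.897 in GFP-PGC-1α, 0.868 and 0.859 in GFP+DFO and 0.921 and 0.898 in GFP. Mean log2 signal of 24 poly-A spike-in probe sets was 8.11 and 7.97 in GFP-PGC-1α+DFO, against 8.35 to 8.77 on the other 6 arrays. When the arrays were scaled to these spike-ins, the all-gene median became 0.57 in place of -0.05 (log2) for GFP-PGC-1α+DFO over GFP+DFO and 0.45 in place of 0.01 for GFP-PGC-1α+DFO over GFP-PGC-1α, but 0.09 in place of -0.08 for GFP-PGC-1α over GFP and -0.02 on both scales for GFP+DFO over GFP. Comparisons that involve GFP-PGC-1α+DFO therefore depend on the scale, and changes on the spike-in scale are to be read against these medians.

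The chaperonin pair and the other folding chaperones had their lowest values in GFP+DFO. Hspe1, the lid of the chaperonin, read 3116 and 2926 intensity units in GFP-PGC-1α+DFO, 3466 and 3661 in GFP-PGC-1α, 1281 and 1225 in GFP+DFO and 3160.1 and 3258 in GFP. GFP+DFO stood apart below the other 6 arrays. Hspd1, the barrel, read 4968 and 4489 in GFP-PGC-1α+DFO, 5197 and 5065 in GFP-PGC-1α, 3043 and 2964 in GFP+DFO and 4303 and 4088 in GFP. Hspa9, the motor that draws proteins into the matrix, read 5433 and 5132 in GFP-PGC-1α+DFO, 6246 and 6072 in GFP-PGC-1α, 4001 on both arrays of GFP+DFO and 4883 and 4956 in GFP. Hspd1 and Hspa9 shared 1 order of group means, GFP-PGC-1α highest, then GFP-PGC-1α+DFO, GFP and GFP+DFO, with no overlap between neighbours. Trap1, the mitochondrial relative of the cytosolic chaperone Hsp90aa1, read 647 and 642 in GFP-PGC-1α+DFO, 1299 and 1411 in GFP-PGC-1α, 455 and 449.6 in GFP+DFO and 1308 and 1236 in GFP. Its 2 groups with DFO lay below both without, and the values of GFP-PGC-1α and GFP overlapped.

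**Figure D1:**
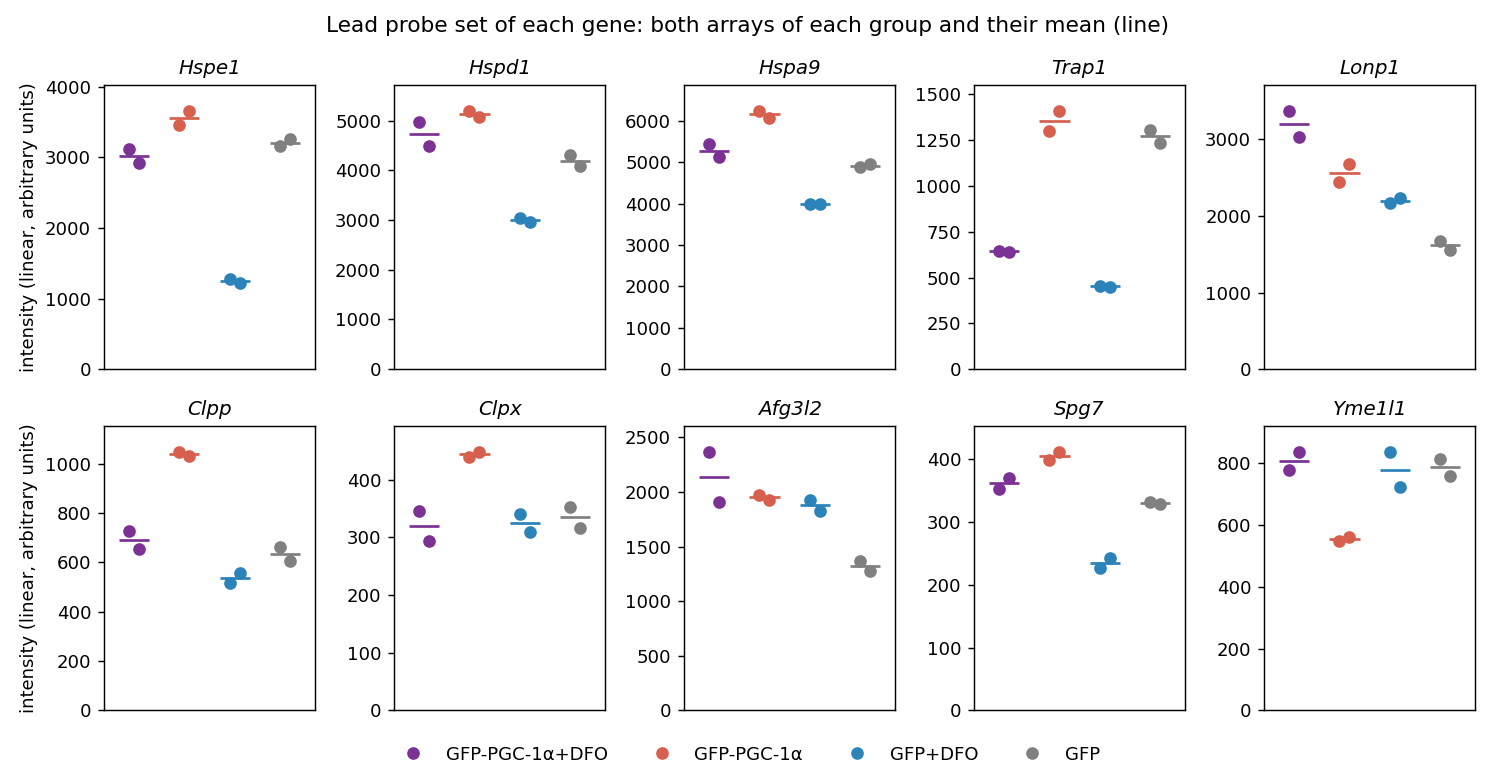
Intensity of the lead probe set of each of the 10 genes (linear scale from 0, 1 panel a gene) on the 2 arrays of GFP-PGC-1α+DFO, GFP-PGC-1α, GFP+DFO and GFP, with a line at each group's mean. Hspe1 and Trap1 are lowest in GFP+DFO, Lonp1 and Afg3l2 are lowest in GFP, and Yme1l1 is lowest in GFP-PGC-1α.

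Among the matrix proteases Lonp1 and Clpx followed other orders, while the group means of Clpp followed the order of Hspd1. Lonp1, which degrades oxidised and unassembled matrix proteins, read 3372 and 3034 in GFP-PGC-1α+DFO, 2448 and 2673 in GFP-PGC-1α, 2171 and 2228 in GFP+DFO and 1676 and 1556 in GFP. Its 4 groups did not overlap, and GFP was the lowest, unlike for the chaperones. Clpp, the cutting chamber of the Clp protease, read 726 and 652 in GFP-PGC-1α+DFO, 1046 and 1030.5 in GFP-PGC-1α, 516 and 555 in GFP+DFO and 662 and 606 in GFP. GFP-PGC-1α stood above all other arrays, while GFP-PGC-1α+DFO and GFP overlapped. Clpx, the unfoldase that feeds Clpp, read 346 and 293 in GFP-PGC-1α+DFO, 439.8 and 448 in GFP-PGC-1α, 339.6 and 309.5 in GFP+DFO and 353 and 317 in GFP. Here too GFP-PGC-1α was above the rest, and the other 3 groups overlapped.

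Among the inner membrane proteases, Afg3l2 and Spg7 are subunits of the same complex, which faces the matrix. Afg3l2 read 2366 and 1912 in GFP-PGC-1α+DFO, 1976 and 1927 in GFP-PGC-1α, 1927 and 1826 in GFP+DFO and 1368 and 1279 in GFP. GFP was lowest, and neighbouring groups among the other 3 overlapped. Spg7, named for hereditary spastic paraplegia, read 353 and 370.3 in GFP-PGC-1α+DFO, 398 and 411 in GFP-PGC-1α, 227 and 243 in GFP+DFO and 332 and 328 in GFP. It followed the order of Hspd1, with GFP+DFO lowest and no overlap. Yme1l1, whose active site faces the intermembrane space, read 777 and 836 in GFP-PGC-1α+DFO, 549 and 562 in GFP-PGC-1α, 835 and 722 in GFP+DFO and 814 and 759 in GFP. GFP-PGC-1α was lowest, and the other 3 groups overlapped.

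The construct was first set against GFP without DFO, the comparison that asks what the coactivator did to these genes with iron at hand. Clpp rose by 0.71 ± 0.10 (log2 ± SE, n = 2 arrays a group; limma adjusted p = 0.0172) and Lonp1 by 0.66 ± 0.10 (adjusted p = 0.0204), while Yme1l1 fell by 0.50 ± 0.11 (adjusted p = 0.0496). In all 2 of 10 genes passed upwards, against 4.96% of all genes, and 1 downwards, against 4.77% (8.41% and 7.64% of the 9096 genes above the median level). The median change was 0.31, against -0.08 over all genes, with 9 of 10 values positive. Those that did not pass were Afg3l2 at 0.56 (adjusted p = 0.0546), Clpx at 0.41 (0.102), Hspa9 at 0.32 (0.0653), Spg7 at 0.29 (0.0912), Hspd1 at 0.29 (0.112), Hspe1 at 0.15 (0.321) and Trap1 at 0.09 (0.555). For Hspe1 the 95% interval of the change was -0.06 to 0.37, and for Trap1 -0.13 to 0.31. Lonp1 and Clpp no longer passed without any 1 of the 6 arrays of GFP-PGC-1α, GFP+DFO and GFP (limma adjusted p = 0.0667 to 0.0968 and 0.0558 to 0.106), nor Yme1l1 without any 1 of the 8 (0.0589 to 0.195), and Afg3l2 passed without either GFP-PGC-1α+DFO array (0.0303). On the spike-in scale 0 of the 10 passed by limma, with Lonp1 at 0.84 (adjusted p = 0.0930), Clpp at 0.89 (0.0696) and Yme1l1 at -0.32 (0.428), and 6 had an unadjusted p under 0.05, against 8 on the deposited scale. Of all 18193 genes 5036 had an unadjusted p under 0.05 on the deposited scale.

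With DFO present 6 of the 10 passed, led by the chaperonin lid. Hspe1 rose by 1.27 ± 0.09 (log2 ± SE; limma adjusted p = 0.00140), 2.41-fold, in GFP-PGC-1α+DFO over GFP+DFO. Hspd1 rose by 0.65 ± 0.09 (adjusted p = 0.00900), Spg7 by 0.62 ± 0.08 (0.00811), Lonp1 by 0.54 ± 0.10 (0.0221), Trap1 by 0.51 ± 0.09 (0.0163) and Hspa9 by 0.40 ± 0.08 (0.0251). That made 6 of 10 upwards, against 6.93% of all genes (11.2% of those above the median level), while 2186 of the 18193 genes passed downwards and no member did. The median was 0.46, against -0.05 over all genes. Clpp, at 0.36 (adjusted p = 0.0657), Afg3l2 at 0.18 (0.398), Yme1l1 at 0.05 (0.798) and Clpx at -0.02 (0.925) did not pass, and on the spike-in scale, where 9 of 10 passed, Clpx turned to 0.59 (0.0530). Of all 18193 genes 4044 passed on that scale, 94.0% of them upwards. The call of Hspe1 was kept without each of the 8 arrays. Calls ended for Hspd1 (limma adjusted p = 0.0690 to 0.0722) and Spg7 (0.0513 to 0.0727) without either GFP+DFO array, for Trap1 (0.0523 to 0.104) without either of these or GFP-PGC-1α+DFO replicate 2, and for Lonp1 (0.0568 to 0.132) without either of these or GFP-PGC-1α+DFO replicate 1. That of Hspa9 ended without any 1 of GFP+DFO, of GFP-PGC-1α, or GFP-PGC-1α+DFO replicate 1 (0.0553 to 0.143). Over these groups 5 of 8 myotube markers fell and 1 rose, and the Actb ratio was 0.753 and 0.811 in GFP-PGC-1α+DFO, against 0.868 and 0.859 in GFP+DFO. The part of either in these rises was not tested.

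**Figure D2:**
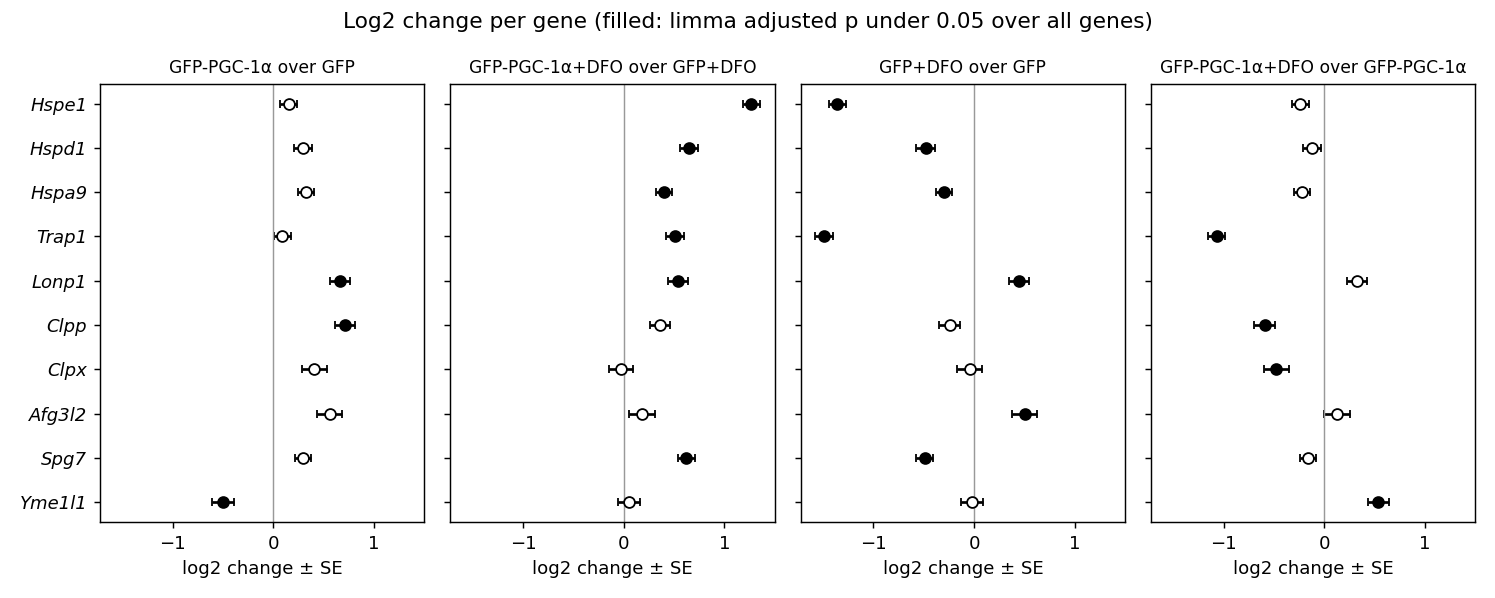
Log2 change with its SE for each gene in 4 comparisons of 2 arrays with 2, filled where the limma adjusted p over all 18193 genes was under 0.05. Hspe1 is at 0.15 for GFP-PGC-1α over GFP and 1.27 for GFP-PGC-1α+DFO over GFP+DFO, and Lonp1 and Afg3l2 are the genes above 0 for GFP+DFO over GFP.

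DFO in GFP cells, set against GFP cells without it, gave calls in both directions. This comparison shares the GFP arrays with the first. Trap1 fell by 1.49 ± 0.09 (log2 ± SE; limma adjusted p = 0.000478), to 0.356 of its level, and Hspe1 by 1.36 ± 0.09 (adjusted p = 0.000606), to 0.390. Smaller falls were those of Spg7 by 0.49 ± 0.08 (adjusted p = 0.0118), Hspd1 by 0.48 ± 0.09 (0.0165) and Hspa9 by 0.30 ± 0.08 (0.0476). Afg3l2 rose by 0.50 ± 0.13 (adjusted p = 0.0405) and Lonp1 by 0.45 ± 0.10 (0.0303). Thus 5 of 10 passed downwards, against 12.5% of all genes, and 2 upwards, against 11.8% (20.7% and 19.1% of genes above the median level), and the median was -0.27, against -0.02 over all genes. Clpp at -0.24 (adjusted p = 0.156), Clpx at -0.04 (0.841) and Yme1l1 at -0.02 (0.933) did not pass. The 2 subunits of the matrix-facing membrane protease thus passed in opposite directions. The calls of Trap1 and Hspe1 were kept without each of the 8 arrays and on the spike-in scale (limma adjusted p = 0.00632 and 0.00692), where those of the other 5 ended (0.117 to 0.333) at nearly the same changes. Spg7 no longer passed without GFP replicate 1 or either GFP+DFO array (0.0583 to 0.0872), Hspd1 without any 1 of the 4 arrays compared (0.0515 to 0.104), and Hspa9, Afg3l2 and Lonp1 without any 1 of those 4 or of GFP-PGC-1α (0.0922 to 0.195, 0.0786 to 0.182 and 0.0545 to 0.150). A fit of the 3 groups other than GFP-PGC-1α+DFO, chosen after seeing the data, gave 3 of 10 for the construct, with Afg3l2 (adjusted p = 0.0303) in place of Yme1l1 (0.0589), and 7 of 10 for DFO. Beside these changes 6 of 8 myotube markers fell, with a summed intensity of 19221 to 19696 in GFP+DFO, against 45954 to 49056 in GFP.

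In cells with the construct DFO gave 4 calls, in a comparison that shares the GFP-PGC-1α arrays with the first. Trap1 fell by 1.07 ± 0.09 (log2 ± SE; limma adjusted p = 0.00102), Clpp by 0.59 ± 0.10 (adjusted p = 0.0117) and Clpx by 0.48 ± 0.12 (0.0414), while Yme1l1 rose by 0.54 ± 0.11 (0.0198). That is 3 of 10 downwards, against 14.2% of all genes, and 1 upwards, against 11.4% (23.6% and 17.5% of those above the median level). Lonp1 at 0.32 (adjusted p = 0.0750), Hspe1 at -0.24 (0.106), Hspa9 at -0.22 (0.103), Spg7 at -0.16 (0.224), Afg3l2 at 0.12 (0.537) and Hspd1 at -0.12 (0.402) did not pass. On the spike-in scale all 3 falls ended, with Trap1 at -0.63 (adjusted p = 0.0603), Clpp at -0.15 (0.552) and Clpx at -0.04 (0.880), Lonp1 and Yme1l1 passed at 0.76 (0.0392) and 0.98 (0.0145), and Hspe1, Hspd1, Hspa9 and Spg7 turned to 0.20, 0.32, 0.22 and 0.28, all against a median of 0.45 over all genes. The call of Trap1 was kept without each array, while those of Clpp ended without either GFP-PGC-1α array (0.0555 to 0.0669), of Yme1l1 without either of these or GFP-PGC-1α+DFO replicate 2 (0.0727 to 0.0978), and of Clpx without any array except GFP-PGC-1α+DFO replicate 1 (0.0607 to 0.139). Myotube markers fell in 7 of 8, and their summed intensity was 13520 to 14551 in GFP-PGC-1α+DFO, against 39602 to 39885 in GFP-PGC-1α.

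Whether the construct acted differently with DFO was tested as an interaction, the change with DFO minus that without. Hspe1 passed, at 1.12 ± 0.12 (log2 ± SE; limma adjusted p = 0.0475), where 0.231% of all genes passed upwards. The call ended without any 1 of the 8 arrays (adjusted p = 0.0624 to 0.237) and on the spike-in scale (1.56, adjusted p = 0.143), while the value stayed between 1.07 and 1.16 without single arrays. The median interaction over all genes was 0.43 on the spike-in scale, against -0.01 on the deposited scale, and spike-in values below are to be read against it. For the barrel Hspd1 the difference was 0.36 ± 0.13 (adjusted p = 0.244), with a 95% interval of 0.04 to 0.68. Yme1l1 had 0.55 ± 0.15 (adjusted p = 0.171), Trap1 0.42 ± 0.12 (0.185) and Spg7 0.33 ± 0.12 (0.249). Negative values were those of Clpx at -0.43 (0.288), Afg3l2 at -0.38 (0.355), Clpp at -0.35 (0.296) and Lonp1 at -0.12 (0.711), which turned positive on the spike-in scale (0.01, 0.06, 0.09 and 0.32), and Hspa9 had 0.08 (0.774). Of these 9, 0 passed by limma and 4 had an unadjusted p under 0.05 (Hspd1, Trap1, Spg7 and Yme1l1), against 3165 of all 18193 genes. The 95% interval of Lonp1 ran from -0.49 to 0.24.

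**Figure D3:**
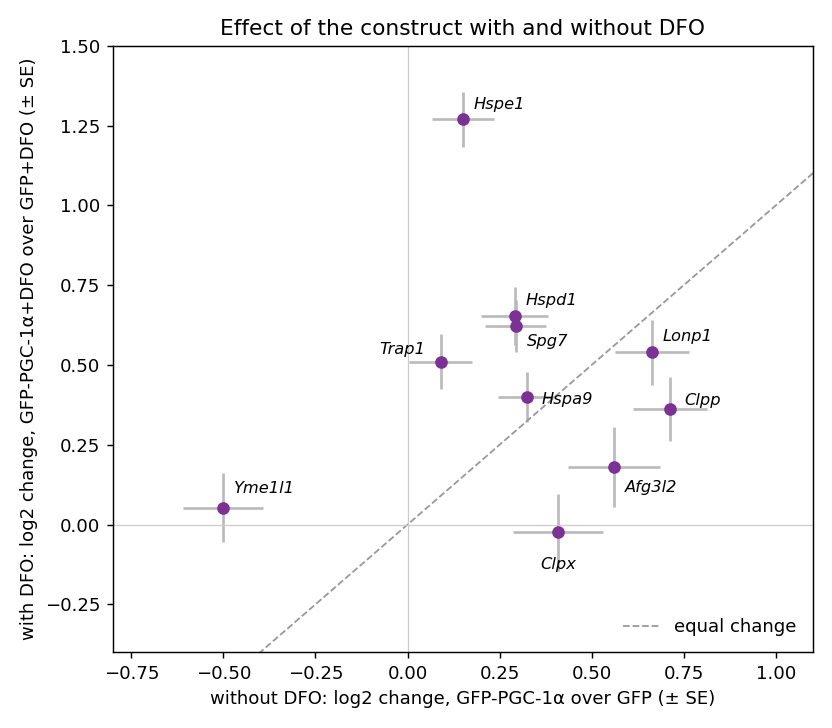
Log2 change of each gene with the construct in the presence of DFO (vertical, GFP-PGC-1α+DFO over GFP+DFO) against that in its absence (horizontal, GFP-PGC-1α over GFP), with SE bars and a dashed line of equal change; the axes share no arrays. Hspe1 lies furthest above the line, at 1.27 against 0.15, and Clpx, Clpp, Afg3l2 and Lonp1 lie below it on the deposited scale but not on the spike-in scale. On the spike-in scale the median difference over all genes is 0.43.

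With both factors against neither, Lonp1 rose by 0.99 ± 0.10 (log2 ± SE; limma adjusted p = 0.00159), 1.98-fold, and Afg3l2 by 0.69 ± 0.13 (adjusted p = 0.0117), while Trap1 fell by 0.98 ± 0.09 (0.000945). Of all genes 13.5% passed upwards and 18.3% downwards (20.9% and 29.8% of those above the median level). Hspe1, at -0.09 (adjusted p = 0.504), and Hspd1, at 0.17 (0.223), did not pass, and their 95% intervals ran from -0.30 to 0.13 and from -0.06 to 0.40. The calls of Lonp1 and Trap1 were kept without each array, and that of Afg3l2 ended without GFP replicate 2 (0.0580). On the spike-in scale Lonp1 was at 1.60 and Afg3l2 at 1.30, both passing, while Trap1 was at -0.36 (0.172), Hspe1 at 0.53 (0.0588) and 8 of 10 genes passed, against a median of 0.61 over all genes. Of all 18193 genes 7057 passed on that scale, 86.0% of them upwards.

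The other probe sets bear on how far a lead can be trusted. The 10 genes had 14 further probe sets, 10 of them above the median level, and Hspd1 and Lonp1 had none. The second probe set of Hspe1 read 1422 and 1325 in GFP-PGC-1α+DFO, 1784 and 1826 in GFP-PGC-1α, 537 and 528 in GFP+DFO and 1407 and 1401 in GFP, the same pattern as the lead. In a fit of every probe set on its own its DFO change in GFP cells was -1.40 ± 0.10 (limma adjusted p = 0.00206), and the further ones of Trap1 and Clpp gave -1.40 ± 0.16 (0.00671) and -0.36 ± 0.14 (0.169). For Afg3l2 a dimmer probe set rose more, by 0.89 ± 0.20 (0.0453). Another had 0.42 ± 0.20 (0.256), and the Afg3l2 lead in this fit had 0.50 ± 0.14 (0.0803), neither passing. For Yme1l1 the probe sets disagreed: a second fell with DFO in GFP cells, by 0.51 ± 0.12 (0.0488), where the lead had -0.02, and another had -0.11 ± 0.21 (0.798). With DFO in GFP-PGC-1α cells these 2 had -0.22 and -0.21, where the lead had 0.54, so the rise of Yme1l1 rests on its lead. With a gene's probe sets averaged, 3 called changes turned sign: Yme1l1 and Clpx with DFO in GFP-PGC-1α cells (-0.09 and 0.27) and Spg7 with DFO in GFP cells (0.03), each of the last 2 averaged with 1 dim probe set. One Hspa9 probe set read 1287 and 2669 on the 2 GFP arrays, so its change of 0.21 ± 0.34 rests on 1 array. Among the 10 brighter ones the sign matched the lead in all 10 for GFP-PGC-1α over GFP, in 9 for GFP+DFO over GFP, in 8 each for the construct with DFO and for DFO with the construct, and in 7 each for the interaction and for both factors against neither. Over all 14 the matches were 12, 9, 8, 10, 7 and 9 in this order. The lead probe sets of Hspe1 and Afg3l2 are among those whose name marks possible matches to related transcripts. So are the further ones of Trap1 and Clpp and the Hspa9 probe set that read 1287 and 2669 on the GFP arrays. Both chaperonin genes also have pseudogenes, so part of the chaperonin signal is uncertain.

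**Figure D4:**
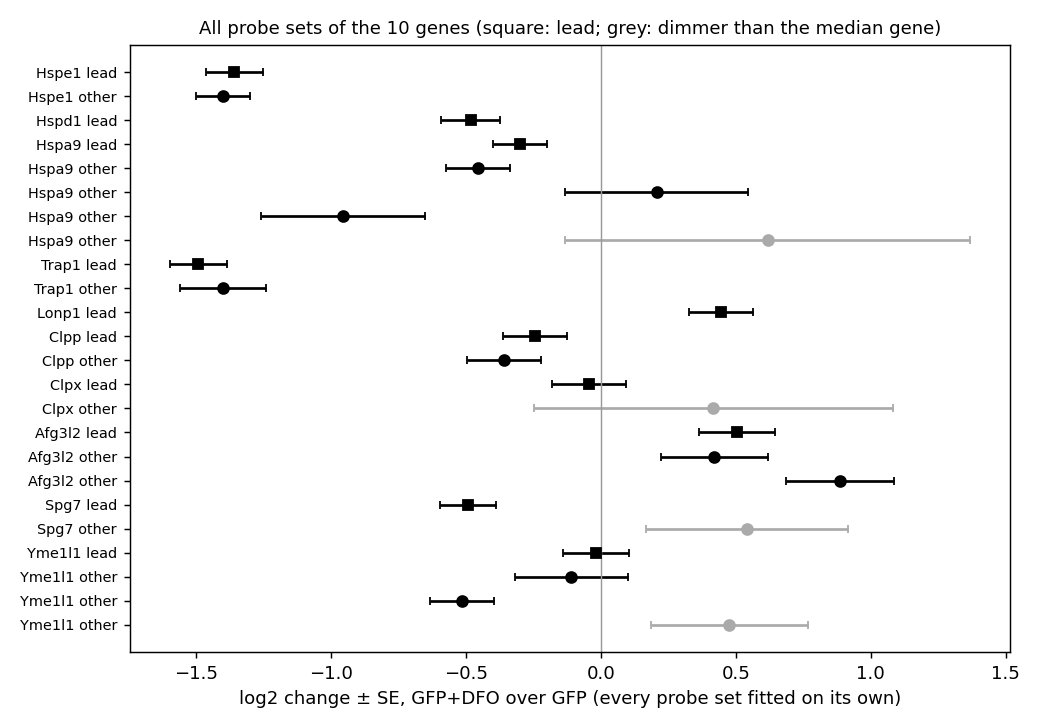
Log2 change with its SE for GFP+DFO over GFP in each of the 24 probe sets, fitted on their own, with squares for leads, circles for others and grey for those dimmer than the median gene. Both probe sets of Hspe1 and both of Trap1 lie between -1.49 and -1.36, and the 4 grey ones have SEs of 0.29 to 0.75.

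Genes that work with the 10 were taken as 7 lists, and the counts are those past an adjusted p of 0.05 by limma over all genes. Co-chaperones of the matrix rose with the construct in 5 of 9 without DFO and 6 of 9 with it (medians 0.57 and 0.47). Among them were Ppif, cyclophilin D of the permeability pore, at 1.79 and 2.32, Dnajc15 at 1.22 and 1.71, and Grpel1, the nucleotide exchange factor of Hspa9, at 0.68 and 0.87. Dnaja3, a J-protein partner of Hspa9, rose by 0.82 without DFO and 0.47 with it. With DFO in GFP cells 2 of 9 fell, Dnlz at -1.15 and Dnajc15 at -0.85, a count near the share among genes above the median level. Leaving out single arrays gave 1 to 6 rises without DFO, 3 to 4 with it and 2 falls in every case, and the construct's calls of Ppif were kept throughout.

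Of other mitochondrial proteases and peptidases 1 of 14 rose with the construct without DFO, the rhomboid protease Parl at 0.50, a call kept in 2 of the 8 fits without 1 array (adjusted p up to 0.115). With DFO Parl rose by 0.49, and Htra2, a serine protease of the intermembrane space, and Pmpca, of the presequence peptidase, fell by 1.04 and 0.66 (3 of 14 passing; list median -0.13, and 0.49 on the spike-in scale). On that scale 4 of the 14 passed upwards and 0 downwards, and without single arrays there were 0 to 1 rises and 0 to 2 falls. DFO lowered 5 of 14 in GFP cells, led by Htra2 at -1.56, Pmpcb, the catalytic subunit of the presequence peptidase, at -1.02 and Lactb at -0.996, of which Htra2 and Pmpcb were kept without each array and Lactb in 4 of 8. Among 5 scaffolds and other AAA proteins, Phb2, a prohibitin that rings the membrane proteases, and Atad3a rose with the construct, by 0.94 and 0.71 without DFO and by 0.88 and 1.56 with it. Without DFO the call of Phb2 was kept in 5 of the 8 fits without 1 array and that of Atad3a in 2, where the list's count ran from 0 to 3, and from 1 to 3 with DFO. DFO in GFP cells lowered 4 of 5, among them Bcs1l at -1.46, Stoml2 at -1.08 and Atad3a at -0.88, and 2 to 4 fell without single arrays.

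Of 7 substrates of these proteases, 4 rose with the construct without DFO and 5 with it, and 6 fell with DFO in GFP cells. Alas1, the first enzyme of haem synthesis and a substrate of Lonp1, rose by 1.86 and 1.77 and fell by 0.65 with DFO. Opa1, the inner membrane fusion GTPase that Yme1l1 cuts, rose by 0.80 without DFO and 0.73 with it. Smdt1, a subunit of the calcium uniporter, rose by 0.79 with DFO. Tfam, the packaging factor of the mitochondrial genome and a substrate of Lonp1, had the largest fall of the list with DFO in GFP cells, by 0.77. Timm17a, an import channel subunit which YME1L1 degrades in human cells, rose by 0.61 and 1.01 and fell by 0.71 with DFO. Prelid1, a lipid carrier that YME1L1 also degrades in human cells, went the other way, with a rise of 0.97 under DFO in GFP cells (adjusted p = 0.00226). Without single arrays the counts were 1 to 4, 2 to 5 and 2 to 6. Of 5 stress regulators of mitochondrial chaperone genes, Ddit3, which encodes CHOP, rose by 1.04 with DFO in GFP cells and Cebpb by 0.97, whereas Atf5, described in mammals as a regulator of these chaperones, fell by 0.99. These 3 calls were kept without each array. Ddit3 also rose with the construct, by 0.66 without DFO and 1.02 with it; the first call was kept in 2 of the 8 fits without 1 array (adjusted p up to 0.0880), the second in all 8. Atf4 was at 0.05 with DFO in GFP cells (adjusted p = 0.695).

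Of 17 chaperones of the cytosol and endoplasmic reticulum, the construct lowered 8 without DFO (median -0.43), led by the stress-inducible Hspa1a at -2.54, Hspa1b at -1.91 and Hsph1 at -1.08, and 7 of 17 with DFO, led by Hspa1a at -2.11, Hspa1b at -1.16 and Hspb1 at -0.84, a median of -0.17 that turned to 0.44 on the spike-in scale, where 1 fell and 2 rose. DFO in GFP cells lowered 9 of 17, among them Hsph1 at -0.97, Hspa4 at -0.91 and the chaperonin subunit Cct3 at -0.76, and raised 4, among them Dnajb1 at 1.09, Hsp90b1 at 0.85 and Hspa5 at 0.56. Leaving out single arrays gave 2 to 8 falls with the construct without DFO, 2 to 6 with it and 3 to 9 with DFO in GFP cells. Other mitochondrial enzymes and pores rose with the construct in 14 of 15 without DFO and 13 of 15 with it, with medians of 0.83 and 1.01, where the 10 had 0.31 and 0.46. They were led by Idh3a, of the citrate cycle, at 1.95 without DFO and 2.56 with it, and by citrate synthase, Cs, at 1.30 and 1.83. Without single arrays these counts were 4 to 14 and 10 to 13, and on the spike-in scale 9 and 14. DFO in GFP cells lowered 9 of 15 (median -0.36, and 3 to 9 without single arrays), led by Ndufs1 of complex I at -1.23 and Idh3a at -0.96, and raised 1, the pore Vdac1, at 0.93. On the spike-in scale the construct raised 3, 0, 0, 0, 1 and 9 co-chaperones, other proteases, scaffolds, stress regulators, substrates and other enzymes without DFO and lowered 2 cytosolic chaperones. On that scale the falls with DFO in GFP cells numbered 2, 3, 3, 2, 3 and 4 for co-chaperones, other proteases, scaffolds, substrates, cytosolic chaperones and other enzymes.

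With DFO in GFP-PGC-1α cells the falls numbered 2 of 9 co-chaperones, 5 of 14 proteases, 3 of 5 scaffolds, 5 of 7 substrates, 6 of 17 cytosolic chaperones and 3 of 15 other enzymes, beside 1 of 5 stress regulators, where 14.2% of all genes fell (23.6% of those above the median level). On the spike-in scale these falls numbered 0, 2, 2, 0, 0, 0 and 0 in the same order, and without single arrays 1 to 2, 4 to 6, 2 to 3, 2 to 4, 1 to 5, 1 to 2 and 1. The larger of these included Htra2 at -2.64, Bcs1l at -1.64 and Stoml2 at -1.22, and Alas1 and Tfam at -0.74 and -0.67. Rises in that comparison were 3 of 5 stress regulators, with Ddit3 at 1.39, 4 of 17 cytosolic chaperones, 1 of 7 substrates and 1 of 15 other enzymes. The medians of all these lists but the other proteases and stress regulators turned from negative to positive on the spike-in scale. For both factors against neither 4, 0, 2, 3, 4, 3 and 12 genes of the 7 lists rose and 1, 5, 1, 1, 0, 11 and 0 fell by limma, in the order co-chaperones, proteases, scaffolds, stress regulators, substrates, cytosolic chaperones and other enzymes. These lists held 9, 14, 5, 5, 7, 17 and 15 genes. Of all genes 13.5% rose and 18.3% fell in that comparison (20.9% and 29.8% of those above the median level), so several of these counts lie near the shares. On the spike-in scale the rises there numbered 6, 2, 2, 3, 5, 3 and 15 and the falls 0, 2, 0, 0, 0, 3 and 0. The medians of the proteases and scaffolds there turned from -0.29 and -0.23 to 0.33 and 0.38 on the spike-in scale. In the interaction limma passed 0 of the 72 genes of the lists, with 27 at an unadjusted p under 0.05, against 3165 of all 18193 genes.

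**Figure D5:**
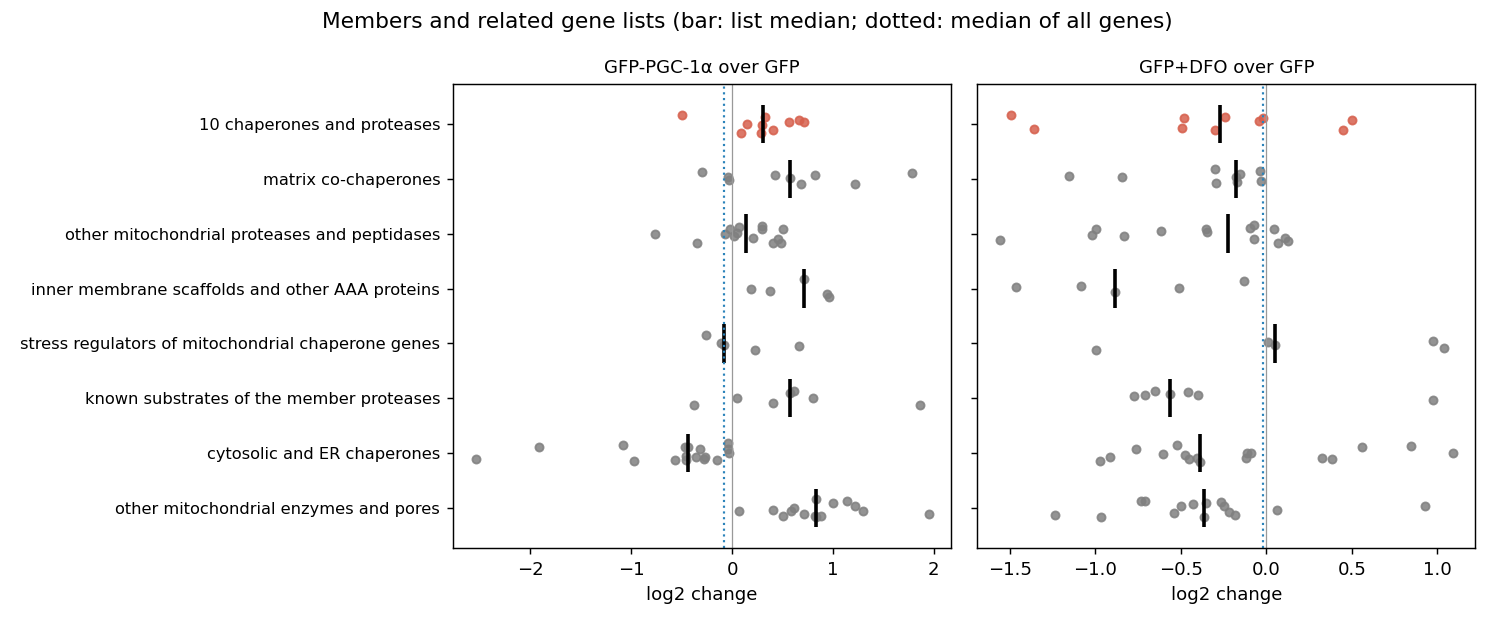
Log2 change of each gene of the 10 (red) and of the 7 related lists (grey) for GFP-PGC-1α over GFP (left) and GFP+DFO over GFP (right), with a bar at each list's median and a dotted line at the median of all genes. For GFP-PGC-1α over GFP the median of the 10 is 0.31, that of other mitochondrial enzymes 0.83 and that of cytosolic chaperones -0.43; no test was run between lists.

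By likeness over the 8 arrays, Hspd1 followed most closely Atp5k, a subunit of ATP synthase (Pearson r = 0.997 of log2 intensity), Nudt8 (0.995), the mitochondrial ribosomal protein gene Mrpl21 (0.995), Prelid3b (0.994) and Pcca, a subunit of propionyl-CoA carboxylase (0.993), out of 9096 genes above the median level. Within the 10 it was nearest to Spg7 (0.97) and Hspa9 (0.97). These are descriptions over 4 groups of 2 arrays, which share the same group differences.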

How the data were processed

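Total RNA of 8 samples was hybridised to Affymetrix Mouse 430 2.0 arrays. The deposited values are linear intensities per probe set, 1 column an array; the algorithm behind them was not given in the sources used here. Values of exactly 1 occur on every array, and array medians are alike, so that a difference in total RNA would not show. Of 45101 probe sets, 34945 carry 1 gene symbol, 932 several, 9160 none and 64 are controls. Intensities were taken as log2 without further scaling, the brightest probe set stood for each of 18193 genes, and all 4 groups were fitted with limma (R 4.3.3, limma 3.58.1; 4 residual degrees of freedom, prior 1.30), with Benjamini-Hochberg adjustment over all genes and a threshold of 0.05. The script was tested on simulated data. Figures were drawn with Python 3.11.15 and matplotlib 3.10.9.

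The members and lists were chosen with earlier results of these data known. From each list the text names up to 3 genes each way past the threshold, by size, and the member genes throughout. Grpel1 without DFO, Dnaja3 and Opa1 with it, Atf4, Ppargc1a and the markers were named after their values were seen. Levels of different probe sets were not compared. The number of arrays, 2 a group, limits the precision, and an exact permutation test of 2 against 2 cannot go below p = 0.333. The sample titles give same-numbered arrays a shared number and do not say whether they shared a batch. Correlations of their deviations ran from -0.110 to 0.221 over 9096 genes, with the largest between GFP-PGC-1α+DFO and GFP+DFO. Such correlations cannot tell whether a batch was shared. Alternatives covered scaling, choice of probe sets, dim genes, the variance model, the arrays fitted and a replicate block.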

Additional observations from a re-analysis of the deposited data

Results flagged for a closer look

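The effect of the construct on Hspe1 differed with DFO. It was 1.27 in GFP-PGC-1α+DFO over GFP+DFO and 0.15 in GFP-PGC-1α over GFP, on the log2 scale, a difference of 1.12 ± 0.12 (SE; limma adjusted p = 0.0475, 2 arrays a group). The second Hspe1 probe set gave 1.00 ± 0.14 (adjusted p = 0.136 in a fit of every probe set), and the adjusted p over the fits that left out 1 array ran from 0.0624 to 0.237. The Actb 5′ to 3′ ratio and the spike-in signal were lowest in GFP-PGC-1α+DFO, and their part in this difference was not tested.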

How the results depend on the processing

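Counts of the 10 genes past the threshold are given for 6 comparisons, called here P (GFP-PGC-1α over GFP), PD (GFP-PGC-1α+DFO over GFP+DFO), D (GFP+DFO over GFP), DP (GFP-PGC-1α+DFO over GFP-PGC-1α), I (the interaction) and B (GFP-PGC-1α+DFO over GFP). As reported they were 3, 6, 7, 4, 1 and 3 in this order. Without single arrays they ran from 0 to 3, 1 to 6, 2 to 7, 1 to 4, 0 to 0 and 2 to 3. Scaling to spike-ins gave 0, 9, 2, 2, 0 and 8. Of all 18193 genes 508, 4044, 2230, 4201, 3 and 7057 passed there, against 1770, 3446, 4409, 4662, 101 and 5786 as reported. Averaged probe sets gave 4 for D, 2 for DP and 0 for I. Leaving out probe sets marked as matching several transcripts gave 2 for P, 5 for D and 0 for I, and fitting every probe set gave 1 for P, 4 for D and 0 for I. Genes above the median level gave 8 for P, 7 for DP and 3 for I, and a trended robust variance 7, 7 and 4. Over all genes these settings called 5148 of 9096 and 5912 of 18193 for DP, against 4662 as reported. For I they called 1316 of 9096 and 1467 of 18193, against 101 as reported. A floor at percentile 25 gave 5 for P. Fits of only the groups compared gave 0 for P, 1 for PD and 1 for DP. Where limma gave 0, unadjusted p under 0.05 was reached by 6 genes (P) and 5 (I) on the spike-in scale, by 3, 5 and 3 for I with averaged, unmarked and every probe set, and by 8 for P with only its groups. As reported, 5036 of all 18193 genes reached it for P and 3165 for I.

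With the replicate number as a block the counts were 1, 5, 5, 4, 0 and 3, and the interaction then had 6 at an unadjusted p under 0.05; the call of Hspe1 ended there. Crossed pairing, chosen after seeing the data like the fit of 3 groups, gave 4 for DP.

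Of all genes past the threshold, 51.0, 36.6, 48.5, 44.6, 41.6 and 42.4% were higher, and 86.2, 94.0, 47.5, 80.9, 66.7 and 86.0% on the spike-in scale. Genes past it for P numbered 1770, against 508 on the spike-in scale, 940 with averaged probe sets, 3524 above the median level, 3746 with a trended variance, 1060 with the block and 0 with only its groups.

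Changes turned sign as follows, on the log2 scale. Quantile normalization gave Clpx 0.11 in PD and 0.056 in B. On the spike-in scale Clpx had 0.59 in PD and 0.55 in B, and Hspe1 0.53 in B. That scale gave in DP Hspe1 0.20, Hspd1 0.32, Hspa9 0.22 and Spg7 0.28, and in I Lonp1 0.32, Clpp 0.089, Clpx 0.0065 and Afg3l2 0.060. Medians over all genes there were 0.57 in PD, 0.45 in DP, 0.43 in I and 0.61 in B. With averaged probe sets Clpx had 0.14 in PD, 0.19 in D, 0.27 in DP, 0.085 in I and 0.33 in B. Yme1l1 had -0.28 in PD, -0.089 in DP, -0.048 in I and -0.32 in B, Spg7 0.026 in D and -0.32 in I, and Hspa9 -0.24 in I and -0.0079 in B. Without single arrays Clpx ran from -0.14 to 0.095 in PD, -0.12 to 0.033 in D and -0.19 to 0.051 in B, Yme1l1 from -0.052 to 0.16 in PD, -0.12 to 0.087 in D and -0.017 to 0.089 in B, and Afg3l2 from -0.029 to 0.28 in DP. The causes were not tested.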
